A study of Mus musculus with 8 samples.

Results

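The D-type cyclins Ccnd1, Ccnd2 and Ccnd3, their kinases Cdk4 and Cdk6, the CDK inhibitors Cdkn1a, Cdkn1b, Cdkn2c and Cdkn2d, and the retinoblastoma gene Rb1 form the core of the switch that lets a cell leave G1. They were chosen by gene symbol, with no measured value in the rule but with earlier results of these data known. All 10 are among the 24413 symbols counted. After a filter on low counts 9 of the 10 could be tested, and Ccnd1 could not. The cells were mouse plasmablasts, dividing antibody-secreting cells, grown from splenic B220+ B cells of C57BL/6J mice in 25 µg/ml lipopolysaccharide (LPS) for 4 days and sorted as CD22-CD138+. The Jagn1 knockout group (4 libraries) had the genotype Jagn1fl/fl Mb1Cre+, in which floxed Jagn1 is deleted by a recombinase made in the B lineage from the Cd79a locus. The control group (4 libraries) had the genotype Jagn1fl/fl, with the same floxed alleles and no Cre listed, so an effect of the recombinase itself cannot be told apart from the loss of Jagn1. The series design gives 4 mice per genotype, and the sources used here do not state their age. Jagn1 encodes a protein of the endoplasmic reticulum that is needed for secretion in several blood cell types.

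D-type cyclins are made in response to growth signals and switch on CDK4 and CDK6. The active kinases phosphorylate RB, which then releases E2F transcription factors and with them the genes of DNA replication. INK4 proteins (Cdkn2c and Cdkn2d encode p18 and p19) bind CDK4 and CDK6 directly, whereas CIP/KIP proteins (Cdkn1a and Cdkn1b encode p21 and p27) bind whole cyclin-CDK complexes and chiefly block CDK2. In B cells cyclin D2 is known for its need in division driven by the antigen receptor, and mice without Cdkn2c make antibody-secreting cells poorly.

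Cdkn1a was the only member called, and it rose 3.79-fold in the knockout. Its level was 40.9 ± 5.31 CPM (counts per 1000000, scaled by TMM factors throughout) in the knockout and 10.8 ± 1.19 CPM in the control (SD, n = 4 each). Of the 9 members tested 1 was higher, none was lower and 8 did not pass at an adjusted p under 0.05 in edgeR's quasi-likelihood test, against 5.74% of all 9904 genes tested that were called in either direction (2.54% higher and 3.19% lower). At an unadjusted p under 0.05 there were 2 of 9 members, Cdkn1a and Cdkn2d, a share near that of all genes (1785 of 9904). The median log2 fold change over the 9 members was -0.05, and over all genes tested it was -0.01. In simulated libraries of this design the test recovered 6.85% of genes changed 1.5-fold, 54.4% of those changed 2-fold and 94.3% of those changed 4-fold, so a member that did not pass is not shown to be equal in both groups. The changed genes were drawn above a mean level that Cdk6 does not reach, so these rates do not cover it. Their spread was set by level and not gene by gene, so the rates may be too high for more variable genes. In the simulation 103 of 9727 genes were called, against 568 of 9904 in the data. Fewer calls make the adjusted threshold stricter, so in this respect the rates may be too low.

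The targeted gene matched the labels in every library. Total counts ran from 7162089 to 8262474 in the knockout and, more widely, from 5882912 to 10066661 in the control. Jagn1 gave 2, 1, 1 and 1 counts in the knockout libraries and 19, 35, 16 and 99 in the control libraries. At a floor of 3 counts, a library without a count could still hold 0.292 to 0.483 CPM of a gene, depending on the library and for counting error only. Control replicates 1 and 4 lay farther from their group than the rest, with root mean square deviations of log2 CPM of 0.594 and 0.581 where those of the other libraries were 0.324 to 0.432. Both groups held transcripts of plasmablast and B cell markers: Prdm1 was at 838 to 1045 CPM in the knockout and 862 to 1331 CPM in the control, and the B cell gene Ms4a1 at 318 to 436 CPM and 316 to 441 CPM. The B cell gene Pax5 was at most 0.655 and 1.39 CPM. Of 7 tested B cell markers none was called, where 5.74% of all genes tested were called in either direction. The sum of all 8 was 727 to 788 CPM in the knockout and 678 to 837 CPM in the control. Of 10 plasmablast markers 5 were called lower and none higher, against 3.19% and 2.54% of all genes tested. The summed level of the 10 was 5294 to 7795 CPM in the knockout and 8093 to 13060 CPM in the control. Sdc1, the gene of the sort marker CD138, was at 16.8 to 23.3 CPM in the knockout and 33.0 to 56.6 CPM in the control. Tnfrsf17, Slamf7, Cd93 and Jchain were also lower in every knockout library, and the ranges of the remaining markers overlapped. Cd93 was at 199 to 231 CPM in the knockout and 491 to 516 CPM in the control. Of 9 myeloid markers none was abundant enough to test, their sum was 2.68 to 5.46 CPM in the knockout and 2.41 to 6.73 CPM in the control, and Lyz2, Cd14, S100a8 and S100a9 had no count in any library. The sum of 8 T cell markers was 9.95 to 11.9 CPM in the knockout and 11.9 to 21.4 CPM in the control, with Trat1 at 0. The sums of 6 NK cell markers (Ncr1 and Gzma at 0) and 8 red cell markers (7 at 0) were at most 1.97 and 0.240 CPM in the knockout and at most 4.76 and 0.139 CPM in the control.

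**Figure D1:**
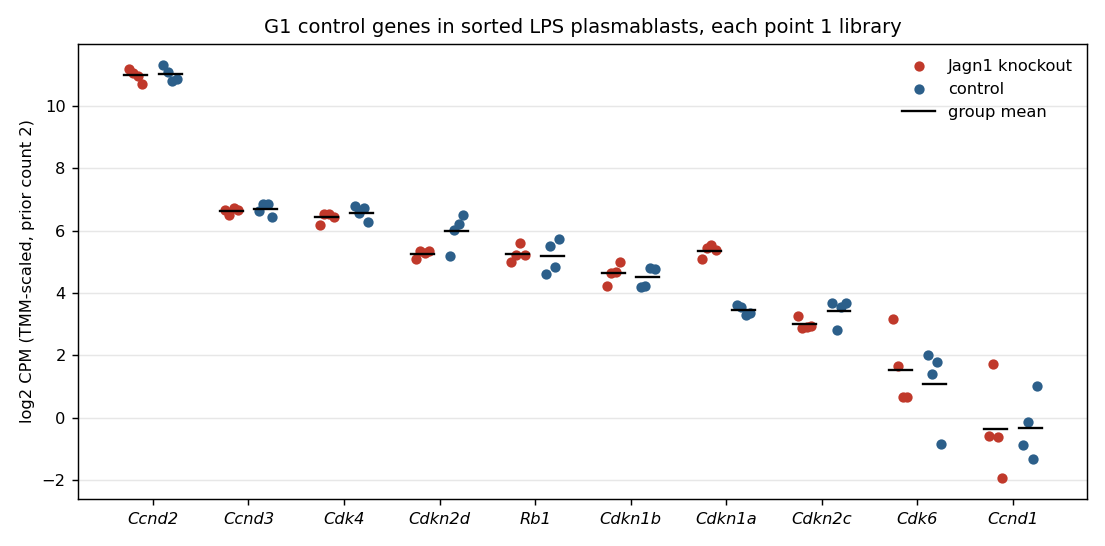
Level of each G1 control gene in every library, as log2 CPM with a prior count of 2, with genes in order of their mean in the control. Red points are the 4 Jagn1 knockout libraries, blue points the 4 control libraries and bars the group means; only for Cdkn1a do the 2 sets of points lie fully apart.

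The D cyclins were almost wholly cyclin D2 in both genotypes. Ccnd2 lies on the minus strand of chromosome 6 from 127125162 to 127152193 (GRCm38, GENCODE M21). It stood at 2331, 2130, 1991 and 1652 CPM in knockout replicates 1 to 4 and at 2552, 2163, 1783 and 1871 CPM in control replicates 1 to 4. The groups overlapped along most of their range. The fold change was 0.968, with a range of 0.784 to 1.20 at 2 standard errors (SE) either side (edgeR adjusted p = 0.920). Ccnd3, on the plus strand of chromosome 17 from 47505051 to 47599691, stood at 91.3 to 105 CPM in the knockout and at 87.2 to 116 CPM in the control, and its fold change was 0.959 (0.782 to 1.18 at 2 SE). Ccnd1, on the minus strand of chromosome 7 from 144929931 to 144939925, gave 3, 21, 3 and 0 counts in the knockout and 2, 4, 1 and 18 in the control. Its reads came mostly from knockout replicate 2 and control replicate 4, and no fold change is given.

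Because the kit reads the 3′ end of each transcript, counts were not divided by length, and the share of a gene in its family is a share of 3′ tags. Ccnd2 made up 95.2% ± 0.765 of D cyclin tags in the knockout and 95.1% ± 1.01 in the control (SD, n = 4 each). Ccnd3 supplied 4.76% ± 0.803 in the knockout and 4.82% ± 1.02 in the control. The summed D cyclin level was 1753 to 2432 CPM in the knockout and 1899 to 2650 CPM in the control. The libraries of the genotypes overlapped both in the amount of D cyclin tags and in their make-up.

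Neither kinase passed. Cdk4, on the plus strand of chromosome 10 from 127063534 to 127067920, encodes the D cyclin kinase with the most 3′ tags in these cells. It stood at 72.9, 92.6, 92.5 and 85.8 CPM in the knockout and at 109, 94.3, 105 and 76.4 CPM in the control. The groups overlapped, with a fold change of 0.894 (0.718 to 1.11 at 2 SE, edgeR adjusted p = 0.660). Cdk6, on the plus strand of chromosome 5 from 3341485 to 3531008, was much scarcer, with 65, 20, 10 and 11 counts in the knockout and 27, 15, 23 and 3 in the control. Its log2 fold change of 0.57 ± 0.73 (SE) rested on knockout replicate 1 and was -0.39 without it. Cdk4 gave 95.9% ± 4.41 of the kinase tags in the knockout and 97.7% ± 1.32 in the control (SD, n = 4 each).

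The 3′ ends of some of these genes are shared with others, which limits how surely their reads are assigned. The last 300 bases of annotated transcripts of Cdk4 also lie in Tspan31, those of Ccnd3 in Bysl and those of Ccnd1 in LTO1, all on the opposite strand. The strand setting used for counting is not known from the sources here. A processed pseudogene, Ccnd3-ps, matched the end of Ccnd3 at 96.3% over 301 bases, and the noncoding gene Gm16505 matched that of Cdk6 at 95.5% over 288 bases. For Ccnd2, Cdkn1a, Cdkn1b, Cdkn2c, Cdkn2d and Rb1 no other transcript matched at least 100 bases of the end at 95% identity. Opposite-strand genes share 372 and 368 exon bases with Ccnd2, 273 with Cdkn1a, and 488 and 408 with Rb1. LTO1 shares 1100 exon bases with Ccnd1.

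Cdkn1a encodes p21, an inhibitor of CDK2 complexes and of the replication clamp PCNA, which p53 and several stress pathways induce. It lies on the plus strand of chromosome 17 from 29090976 to 29100727. Knockout replicates 1 to 4 held 250, 299, 351 and 344 of its counts, or 33.5, 42.9, 46.0 and 41.3 CPM. Control replicates 1 to 4 held 86, 72, 69 and 103, or 12.1, 11.6, 9.60 and 10.0 CPM. Every knockout library was above every control library, a separation upward that 6.45% of all genes tested showed. The log2 fold change was 1.92 ± 0.20 (SE, edgeR adjusted p = 4.35e-05), a fold range of 2.88 to 4.97 at 2 SE, and by p it ranked 10 of 9904. Among the positive fold changes it ranked 57. The call was kept under all 17 alternative settings tried, with log2 fold changes of 1.86 to 2.01 and adjusted p of at most 0.000584. Without control replicates 1 and 4 the log2 fold change was 1.96. The plasmablast markers were lower in the same libraries, as given above, and their part in the rise of Cdkn1a was not tested. In bulk RNA a change in the share of cells that make a transcript cannot be told apart from a change in its level per cell.

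The promoter windows of Cdkn1a are shown because it is the only member called, and that of Cdkn2d because it came nearest to the threshold among the rest. Sequences are from RefSeq (GRCm38.p6), 250 bases before to 50 after each start, 5′ to 3′ on the gene's strand. Capitals mark matches to the GC box GGGCGG bound by SP factors, the CCAAT box CCAAT and the single recognition unit of p53, searched on both strands. In the Cdkn2d window the p53 unit starts inside a GC box and shares 2 bases with it.
Cdkn1a upstream start, chr17:29090729-29091028, plus strand: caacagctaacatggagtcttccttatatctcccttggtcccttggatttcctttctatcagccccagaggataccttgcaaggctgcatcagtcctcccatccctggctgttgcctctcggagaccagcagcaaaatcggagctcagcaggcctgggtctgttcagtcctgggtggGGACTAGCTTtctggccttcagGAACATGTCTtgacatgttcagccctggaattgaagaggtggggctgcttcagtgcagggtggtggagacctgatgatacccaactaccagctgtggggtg
Cdkn1a downstream start, chr17:29093519-29093818, plus strand: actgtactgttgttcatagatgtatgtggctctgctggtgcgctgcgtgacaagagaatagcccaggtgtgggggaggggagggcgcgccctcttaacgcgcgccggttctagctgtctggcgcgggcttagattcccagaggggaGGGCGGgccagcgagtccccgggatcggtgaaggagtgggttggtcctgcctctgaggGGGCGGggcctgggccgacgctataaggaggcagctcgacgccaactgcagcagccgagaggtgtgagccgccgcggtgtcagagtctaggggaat
Cdkn2d start, chr9:21291160-21291459, minus strand: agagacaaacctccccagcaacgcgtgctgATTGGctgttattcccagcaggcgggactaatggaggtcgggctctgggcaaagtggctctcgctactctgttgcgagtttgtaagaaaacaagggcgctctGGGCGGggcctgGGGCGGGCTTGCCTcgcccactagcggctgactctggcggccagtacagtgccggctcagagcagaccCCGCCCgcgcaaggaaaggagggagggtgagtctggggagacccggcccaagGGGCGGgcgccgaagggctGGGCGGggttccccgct

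RefSeq windows were matched for 7 of the 10 members, 10 windows in all. The window of Cdkn1a at its upstream start held 2 p53 recognition units, whose first bases lie 73 and 51 bases before the start, and that at its downstream start held none. At least 1 such unit was present in 8.36% of all 32851 windows and in 2 of the 10 member windows, the other being that of Cdkn2d. At least 1 GC box was present in 7 of the 10 member windows, from 6 of the 7 members, and in 35.7% of all windows. The downstream Cdkn1a window held 2 and that of Cdkn2d held 5. Windows of Ccnd3, Cdk4, Cdkn1b and Cdkn2c held them too, with 4 in 1 Cdkn2c window. The E-box CACGTG, the site of MYC and MAX, was found 4 times in the Cdk4 window and once each in a window of Cdk6 and of Cdkn2c (7.15% of all windows). Neither the E2F motifs TTTCCCGC and TTTGGCGC nor the C/EBP-ATF composite motif TGATGCAA occurred in any of the 10 windows, and they were present in 1.07%, 0.514% and 0.895% of all windows. A match is a string of letters, and binding was not measured.

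The other CIP/KIP member did not pass. Cdkn1b, on the plus strand of chromosome 6 from 134920401 to 134925513, encodes p27, which holds resting lymphocytes out of the cycle. It stood at 18.5, 24.6, 25.4 and 31.6 CPM in the knockout and at 18.2, 18.3, 27.7 and 27.3 CPM in the control. The groups overlapped, and the fold change was 1.09 (0.797 to 1.49 at 2 SE, edgeR adjusted p = 0.839). Cdkn1a made up 62.3% ± 3.76 of the tags of the pair in the knockout, from 56.7% to 64.4%, and 32.8% ± 7.52 in the control, from 25.8% to 39.8% (SD, n = 4 each). The summed level of the pair was 65.9 ± 9.55 CPM in the knockout and 33.7 ± 4.16 CPM in the control.

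**Figure D2:**
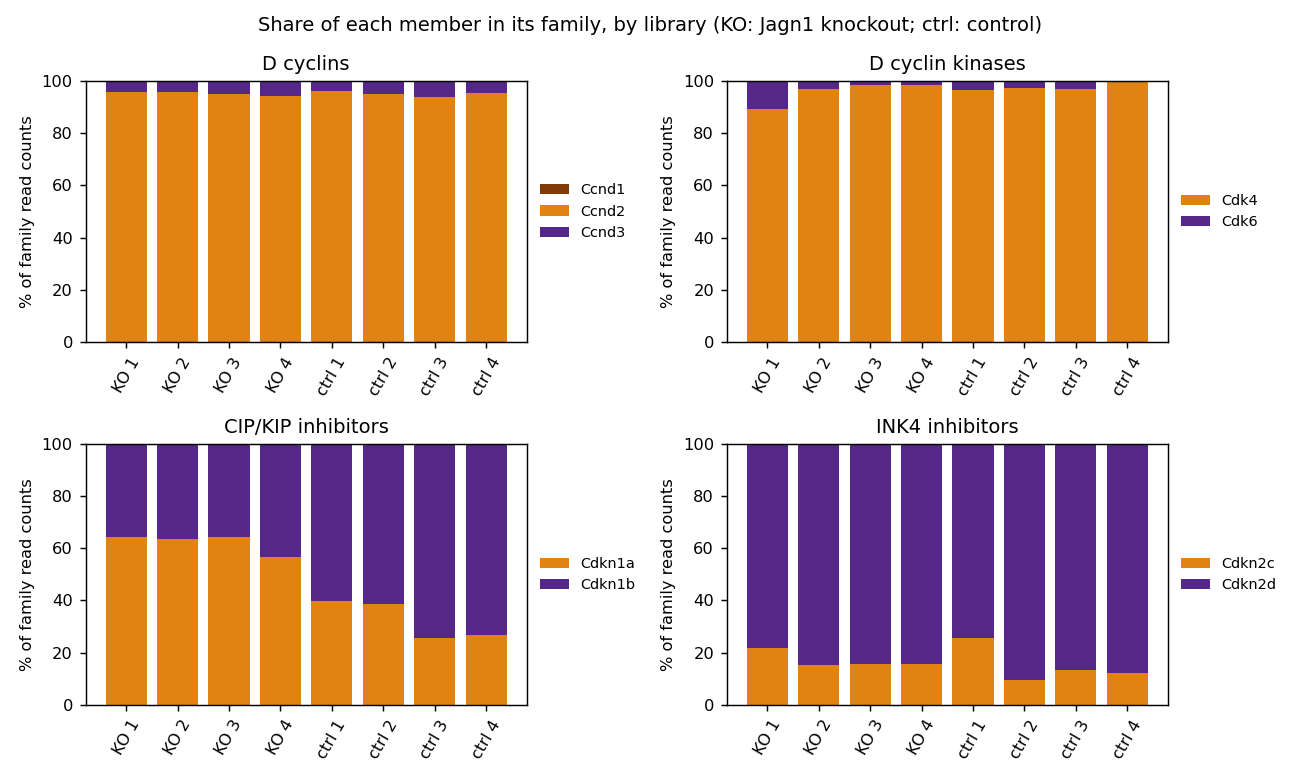
Share of each member in the 3′ tags of its family, in percent, for the 4 Jagn1 knockout libraries (KO) and the 4 control libraries (ctrl), with 1 stacked bar per library. Cdkn1a is 56.7% to 64.4% of CIP/KIP tags in the knockout and 25.8% to 39.8% in the control, while the genotypes overlap in the D cyclin, kinase and INK4 mixes. The INK4 bars hold Cdkn2c and Cdkn2d only, without Cdkn2a and Cdkn2b.

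Both INK4 genes among the members had lower mean levels in the knockout than in the control, and neither passed. Other INK4 genes, given with the partner lists below, had higher mean levels in the knockout. Cdkn2a was at 71.5 CPM against 39.0 CPM in the control, and Cdkn2b at 3.32 against 0.532 CPM. Cdkn2d, on the minus strand of chromosome 9 from 21288410 to 21291407, encodes p19Ink4d. It stood at 33.5, 40.2, 38.5 and 40.6 CPM in knockout replicates 1 to 4 and at 36.5, 64.4, 74.0 and 89.6 CPM in control replicates 1 to 4. Control replicate 1 lay inside the knockout range, and the other 3 control libraries lay above it. The log2 fold change was -0.79 ± 0.23 (SE), or 57.7% of the control level, with an edgeR adjusted p of 0.0531. The result turned on control replicate 1, without which the log2 fold change was -0.99 and the adjusted p 0.000568. It also passed without control replicates 1 and 4 (-0.85, adjusted p = 0.00161), in DESeq2 (0.0191), in limma-voom with sample weights (0.00414), with RLE size factors (0.0496) and without a filter on low counts (0.0217). Without any other single library it did not pass, with adjusted p of 0.0767 to 0.166. The plasma cell transcription factor gene Xbp1 was picked from the plasmablast markers after their values were seen. Among the control libraries it too was lowest in replicate 1 and highest in replicate 4, at 106 and 558 CPM. It was at 186 to 240 CPM in the knockout. Prdm1, Irf4 and Edem1 had the same lowest and highest control library, and Sdc1, Tnfrsf17, Slamf7, Cd93, Jchain and Ly6c2 did not. Slamf7 was highest in control replicate 1, at 301 CPM. The part of these genes in the spread of Cdkn2d was not tested.

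Cdkn2c, on the minus strand of chromosome 4 from 109660876 to 109667189, encodes p18Ink4c. It was scarce, at 9.25, 7.18, 7.20 and 7.44 CPM in the knockout and 12.5, 6.76, 11.5 and 12.5 CPM in the control. Control replicate 2 lay below all knockout libraries and the other 3 control libraries above them. The log2 fold change was -0.48 ± 0.28 (SE, edgeR adjusted p = 0.404). The summed level of this INK4 pair, which leaves out Cdkn2a and Cdkn2b, was 46.0 ± 2.35 CPM in the knockout, from 42.8 to 48.0. In the control it was 76.9 ± 22.5 CPM, from 48.9 to 102.1 (SD, n = 4 each). The ranges of the sum did not overlap, though control replicate 1 was close to the knockout libraries, and the sum was not tested. Cdkn2d made up 83.0% ± 3.09 of INK4 tags from the pair in the knockout and 84.8% ± 7.07 in the control (SD, n = 4 each).

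Rb1, the target of the D cyclin kinases, lies on the minus strand of chromosome 14 from 73183673 to 73325822. It stood at 31.5, 36.9, 48.3 and 37.2 CPM in the knockout and at 24.1, 45.7, 28.2 and 53.1 CPM in the control. The spread of the control libraries covered that of the knockout, and the fold change was 1.02 (0.726 to 1.43 at 2 SE, edgeR adjusted p = 0.975).

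**Figure D3:**
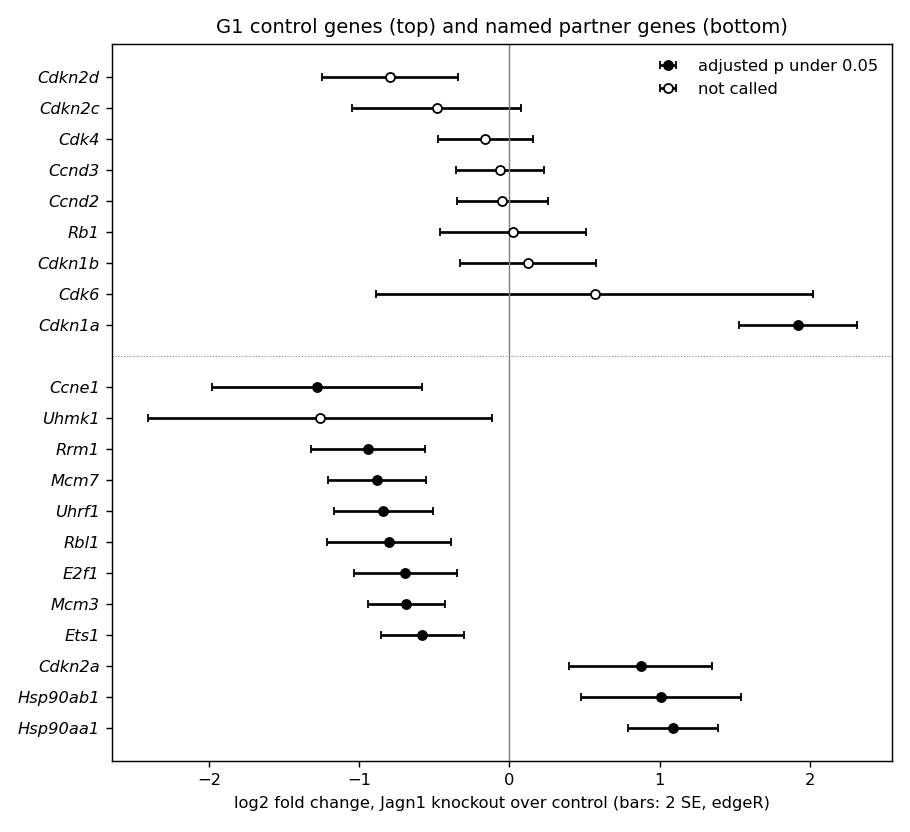
Fitted log2 fold changes, Jagn1 knockout over control, for the 9 tested G1 control genes (above the dotted line) and for genes named from the partner lists (below it), with bars of 2 SE. Filled points had an edgeR adjusted p under 0.05; among the G1 control genes only Cdkn1a at 1.92 is filled.

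The genes around this core were counted in 8 lists of the RB pathway, chosen like the members with earlier results of these data known. Of 4 other CDK inhibitor genes 3 could be tested, and 1 was higher and none lower, against 2.54% and 3.19% of all genes. Cdkn2a, whose transcripts encode p16Ink4a and the p53-stabilising protein p19Arf from different first exons, stood at 73.2, 84.3, 67.6 and 61.0 CPM in the knockout and at 23.3, 36.5, 60.6 and 35.6 CPM in the control. All knockout libraries were above all control libraries, as for 6.45% of all genes tested, although the lowest knockout and the highest control library nearly met. Its log2 fold change was 0.87 ± 0.24 (SE, edgeR adjusted p = 0.0419), and the 3′ tags do not tell the products apart. The call was lost without any 1 knockout library, without control replicate 2, and with control replicates 1 and 4 both left out, with adjusted p of 0.0689 to 0.162. Cdkn2b, which encodes the INK4 protein p15 and was picked out after its values were seen, did not pass (edgeR adjusted p = 0.0590). It was at 3.32 ± 1.02 CPM in the knockout and 0.532 ± 0.553 CPM in the control (SD, n = 4 each). Cdkn3, a phosphatase gene picked out likewise, did not pass either, with a log2 fold change of -0.90 ± 0.26 (SE). In DESeq2, in limma-voom and without a filter on low counts 2 genes of this list were higher and 1 was lower. With control replicate 1, control replicate 4 or both left out 1 was also lower. Over all genes 346 were higher and 469 lower of 11041 in DESeq2, and 471 and 583 of 9904 in limma-voom. Without the filter 275 were higher and 337 lower of 14595.

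Cyclin E, cyclin A and CDK2 act after the D cyclins. Of 5 genes of this step 1 was lower and none higher, against 3.19% and 2.54% of all genes. Their median log2 fold change was -0.50. Ccne1, which encodes cyclin E1, stood at 6.70, 6.46, 6.02 and 9.84 CPM in the knockout and at 11.5, 10.9, 15.3 and 32.6 CPM in the control. Control replicate 4 was far above the rest, and without it the log2 fold change was -0.80, against -1.28 ± 0.35 (SE, edgeR adjusted p = 0.0421) with all libraries. The call was lost without control replicate 3 or 4, without any 1 knockout library, and without control replicates 1 and 4.

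Of 10 E2F and DP factor genes 1 was lower and none higher, against 3.19% and 2.54% of all genes. Their median log2 fold change was -0.36. E2f1, an activator of the S phase programme, stood at 88.9, 67.5, 62.1 and 90.5 CPM in the knockout and at 117, 154, 119 and 110 CPM in the control. The groups did not overlap, a separation downward that 6.63% of all genes tested showed. The log2 fold change was -0.69 ± 0.17 (SE, edgeR adjusted p = 0.0262). The call was lost without knockout replicate 2 or 3 or control replicate 2 or 3 (adjusted p up to 0.126), and the list held 3 lower genes without control replicate 1 and 2 in limma-voom and without control replicates 1 and 4.

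Of 8 tested genes of the RB-related pocket proteins and their DREAM complex 1 was lower and none higher, against 3.19% and 2.54% of all genes. Their median log2 fold change was -0.20. Rbl1, which encodes p107, stood at 15.3, 13.1, 14.3 and 18.1 CPM in the knockout and at 25.8, 32.5, 23.2 and 24.5 CPM in the control. The groups did not overlap, as for the 6.63% of all genes tested that separated downward. Its log2 fold change was -0.80 ± 0.21 (SE, edgeR adjusted p = 0.0323). With the replicate number as a block the call was lost, as it was without knockout replicate 1, 2 or 3 or control replicate 2 or 3, with adjusted p up to 0.137. The list held 3 lower genes in limma-voom and 2 in DESeq2, without a filter on low counts, and with control replicate 4 left out alone or together with control replicate 1. Its relative Rbl2, picked out after its values were seen, encodes p130 and had a log2 fold change of 0.46 ± 0.25 (SE), which did not pass. Mybl2, picked out likewise, did not pass either, with a log2 fold change of -0.77 ± 0.22 (SE, edgeR adjusted p = 0.0540). Of the 8 genes 5 had fitted values below 0 and 3 above, against 5077 and 4827 of all 9904 genes tested.

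The 20 E2F target genes of S phase entry held 7 that fell and 0 that rose (0 in DESeq2 and in limma-voom too), against 3.19% called lower and 2.54% called higher over all genes, and their median log2 fold change was -0.50. Mcm7 and Mcm3, subunits of the replicative helicase, had log2 fold changes of -0.88 ± 0.16 and -0.69 ± 0.13, Uhrf1, which guides maintenance of DNA methylation, -0.84 ± 0.17, and Rrm1, a subunit of ribonucleotide reductase, -0.94 ± 0.19 (SE, edgeR adjusted p = 0.00394, 0.00419, 0.00632 and 0.00681). Mcm7 stood at 85.4, 85.8, 89.1 and 64.1 CPM in the knockout and at 178, 140.3, 123 and 156 CPM in the control. Mcm3 stood at 145, 144, 136 and 137 CPM in the knockout and at 230, 219, 212 and 243 CPM in the control. For all 4 genes the 4 knockout libraries were below the 4 control libraries, which their choice by smallest p favours. Of the 20 genes of the list 8 were separated downward in this way, against 6.63% of all genes tested. The count of genes called lower in the list was 4 without knockout replicate 2 and 7 without control replicates 1 and 4. The median of this list was lower than that of the G1 control genes, and the difference between the lists was not tested.

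Of 6 genes of the CDK-activating kinase and of CDK4 folding 2 rose and none fell, against 2.54% and 3.19% of all genes. Both encode the HSP90 chaperone that loads CDK4 with its cochaperone CDC37. Hsp90aa1 was at 1640 ± 143 CPM in the knockout and 770.0 ± 137 CPM in the control (SD, n = 4 each), and its log2 fold change was 1.09 ± 0.15 (SE, edgeR adjusted p = 0.000373). Hsp90ab1 had a log2 fold change of 1.01 ± 0.27 (SE, edgeR adjusted p = 0.0397), and stood at 7919, 10130, 7928 and 9895 CPM in the knockout and at 7601, 4172, 3609 and 2422 CPM in the control. Control replicate 1 was close to the lowest knockout libraries. Its call was lost without any 1 knockout library, without control replicate 2 or 3 and without a filter on low counts. The kinase subunits Cdk7, Ccnh and Mnat1 and the cochaperone Cdc37, the rest of the list, had log2 fold changes of -0.10, 0.23, 0.31 and 0.07 and did not pass.

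Of 16 genes for the turnover of D cyclins, p21 and p27 none passed in edgeR, in DESeq2 or in limma-voom. In edgeR 5.74% of all genes tested passed. An unadjusted edgeR p under 0.05 was found for 1 of the 16, against 1785 of all 9904 genes tested. The 1 gene of the list was Uhmk1, a kinase gene of p27, at 1.81 ± 1.08 CPM in the knockout and 4.34 ± 2.04 CPM in the control (SD, n = 4 each, edgeR adjusted p = 0.255). Of 14 tested genes of upstream transcription regulators 1 was lower and none higher, against 3.19% and 2.54% of all genes. Ets1, a lymphoid transcription factor gene, was at 166, 142, 170 and 138 CPM in the knockout and at 251, 224, 238 and 207 CPM in the control, a log2 fold change of -0.58 ± 0.14 (SE, edgeR adjusted p = 0.0208). The call of Ets1 was lost without knockout replicate 2 or 4 or control replicate 2 or 3 (adjusted p up to 0.110), and limma-voom gave 2 lower genes in the list. Trp53, the p53 gene, and its target Mdm2, both picked out after their values were seen, did not pass, with log2 fold changes of -0.72 ± 0.37 and -0.01 ± 0.14 (SE).

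The genes whose profile over the 8 libraries lay closest to that of Cdkn1a were Hsph1, Chac1, Sqstm1, Fam129a and Hspb1. Closeness was the Euclidean distance between log2 CPM profiles, each centred on its own mean, over 5425 genes whose average log2 CPM reached 4, and it was 0.634, 0.685, 0.723, 0.765 and 0.897. Hsph1 and Hspb1 encode heat shock proteins, Chac1 a glutathione-degrading enzyme, and Sqstm1 the autophagy receptor p62. Each of the 5 was higher in the knockout, with log2 fold changes of 1.63 for Hsph1, 1.63 for Chac1, 1.87 for Sqstm1, 1.90 for Fam129a and 1.67 for Hspb1, and likeness here is set mainly by the difference between the groups.

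**Figure D4:**
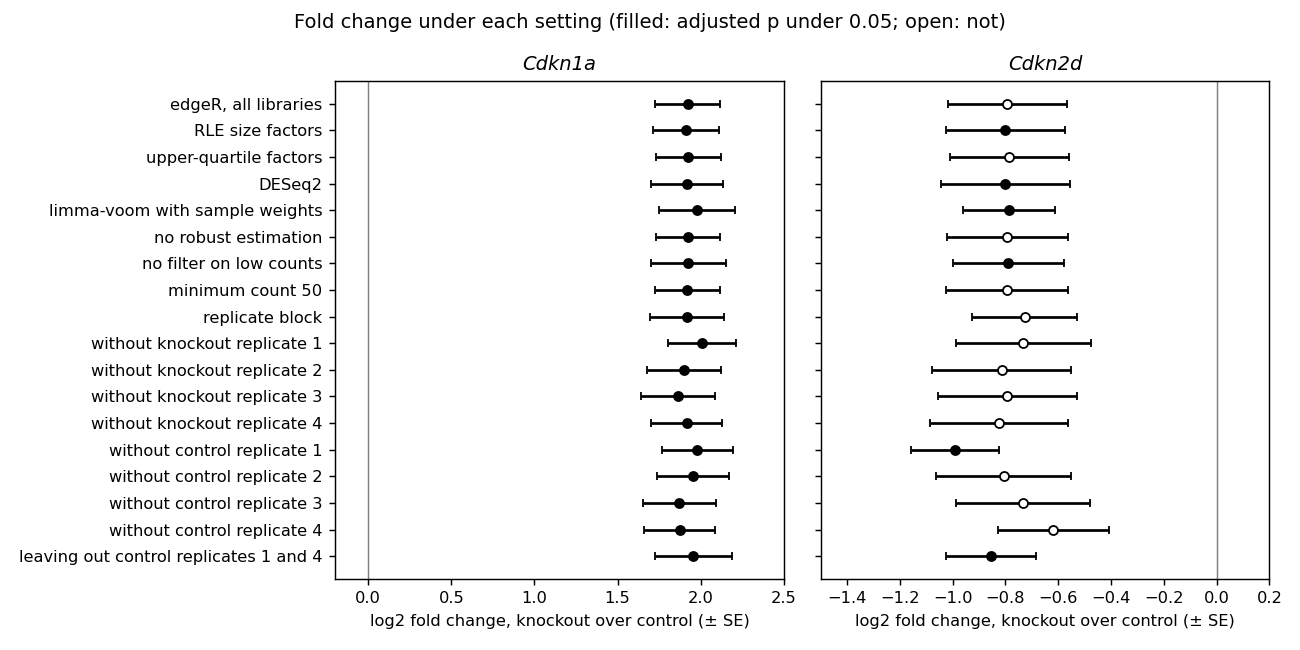
Log2 fold change of Cdkn1a (left) and Cdkn2d (right), Jagn1 knockout over control, with all libraries in edgeR (top) and under 17 alternative settings, with bars of 1 SE. Cdkn1a is filled (adjusted p under 0.05) at every setting, from 1.86 to 2.01, and Cdkn2d is filled at 6 of 17, among them the setting without control replicate 1 at -0.99.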

How the data were processed

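The authors deposited 1 file of raw counts for each of the 8 libraries, with a value for each gene symbol and no normalization. Libraries were made with the QuantSeq 3′ FWD kit, per the labels' protocols. The submitters' processing notes list HTSeq 0.6.1, TopHat2 2.1.1, SAMtools 1.3.1, BWA 0.7.12 and the build mm10, without roles, annotation or strand setting. The members, lists and tests were chosen with earlier results of these data known. Counts were filtered with filterByExpr (minimum count 10, minimum total 15; 9904 genes left), scaled with TMM and tested with edgeR 4.0.16 (R 4.3.3; robust quasi-likelihood, two-sided, group as only term), with Benjamini-Hochberg adjustment over all genes tested and a threshold of 0.05. SE is the size of the log2 fold change over the square root of F. The steps were tested on simulated counts. Alternatives used DESeq2 1.42.0, limma 3.58.1, other scalings and filters, a replicate block and left-out libraries; applying them to the list counts was chosen after seeing the data. No label pairs the replicate numbers. Named partner genes are up to 4 called members of each list by p, or else the member with the smallest p. Positions are from GENCODE M21 (GRCm38), the build of mm10. Replicates differed beyond sampling noise (chi-square per degree of freedom 6.60 to 94.2).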

Additional observations from a re-analysis of the deposited data

Results flagged for a closer look

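In 4 of 56 groups of 4 libraries, 1 library stood apart from the other 3 by a Dixon gap ratio above 0.829, a limit that chance passes in about 1 of 20 groups. Cdkn2c did so in both genotypes: knockout replicate 1 was high at 9.25 CPM against 7.18 to 7.44 CPM in the other knockout libraries (ratio 0.857), and control replicate 2 was low at 6.76 CPM, with the remaining 3 at 11.5 to 12.5 CPM (ratio 0.865). Mcm7 was low in knockout replicate 4, at 64.1 CPM against 85.4 to 89.1 CPM (ratio 0.873). Hspb1 was low in knockout replicate 1, at 27.5 CPM against 48.4 to 52.7 CPM (ratio 0.869).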

How the results depend on the processing

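Of the G1 control genes 1 was called, and 2 were called with RLE size factors, in DESeq2, in limma-voom, with no filter on low counts, and without control replicates 1 and 4, the second being Cdkn2d each time; leaving out single libraries gave 1 to 2. Over all genes 568 were called, 1054 with limma-voom, 901 without control replicates 1 and 4, and 270 to 892 without single libraries. Of the members that did not pass, 4 changed sign under some setting without passing. The log2 fold change of Ccnd2 was 0.019 with limma-voom and 0.041 with control replicates 1 and 4 left out, and -0.12 to 0.065 over the single libraries left out (positive without knockout replicate 4 or control replicate 1). Over the same omissions that of Cdk6 was -0.39 to 0.88 (negative without knockout replicate 1), that of Cdkn1b -0.0090 to 0.25 (negative without knockout replicate 4) and that of Rb1 -0.14 to 0.23 (negative without knockout replicate 3 or control replicate 1 or 3). The causes were not tested. Same-numbered libraries showed little shared deviation (correlations of -0.003 to 0.066, and 2 of 4 knockout libraries lay closest to their own number). These values do not settle whether the numbers pair mice. No label pairs them, so the block was used only as an alternative. With the replicate block 1 member and 509 genes were called, and Cdkn2d had an edgeR adjusted p of 0.0508. Depth limits Ccnd1 and Cdk6 most, with at most 21 and 65 counts in a library.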
